A study of Homo sapiens with 17 samples.

Results

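L363 cells, a human multiple myeloma line, were compared after 48 hours with MS275 at 0.5 uM together with rapamycin at 1 nM and after 48 hours with no drug. The rule took the 3 arrays of each of these groups, 6 of the 17 arrays of the series, by the titles of their samples. The first group is called the combination below and the second the control. The study also holds 3 arrays each of MS275 alone at 0.5 uM and of rapamycin alone at 1 nM, 3 of rapamycin at 10 nM, and 2 of MS275 with rapamycin at 10 nM. Whether the control cells received the solvent of the drugs is not given in the sources used here. All results come from 1 cell line. The labels do not say whether replicates were separate cultures, so the p-values measure the spread between these arrays, which may be technical.

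Rapamycin binds the protein FKBP12, and the pair inhibits mTOR complex 1, a kinase complex that couples amino acid and growth factor supply to protein, lipid and nucleotide synthesis. MS275, also called entinostat, inhibits class I histone deacetylases, which remove acetyl groups from histones and other proteins and are known mainly as corepressors of transcription. Myeloma cells are malignant plasma cells. They depend on immunoglobulin secretion machinery and on the transcription factors IRF4 and MYC, and the series title addresses the level of MYC protein.

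Each array gives a log2 signal per probe set, so a difference of 1 is a factor of 2 in signal. Median signals ran from 5.09 to 5.36 on the 17 arrays. Combination replicate 1 and control replicate 1 stood apart from the rest, with a narrower range of values. Their SDs over all probe sets were 2.15 and 2.14, against 2.27 to 2.37 on the other arrays. Each of these arrays correlated best with the other (r = 0.966 across probe sets, which are not independent). Results are therefore given with both arrays and without them, which leaves 2 arrays in each group. All per-array values below are in the order of replicates 1, 2 and 3.

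The arrays carried the RNA of plasma cells. Of 12 plasma cell markers, 11 had a mean signal above that of the median gene, and their median rank was percentile 98.5 of all genes. Their median signal was 10.51 to 11.74 on the combination arrays and 10.65 to 11.9 on the control arrays. None of 8 T cell markers and none of 8 myeloid markers lay above the median gene. Of the other lists, 3 of 7 B cell markers, 1 of 6 epithelial, 1 of 6 fibroblast and 1 of 3 red cell markers did. Of these markers, CD38 and CD79B fell in the combination and CSF1R rose, as described below.

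With the combination, L363 cells had less RNA for DNA replication, mitosis, amino acid uptake and synthesis, sterol and fatty acid synthesis and glycolysis, and more RNA of MHC class II genes. Of 19775 genes, 533 (2.7%) passed an adjusted p of 0.05 in limma, which fits all 17 arrays together and adjusts over all genes. Of these, 221 (1.12%) were higher and 312 (1.58%) lower in the combination, while the median gene differed by 0.02. The arrays of the groups did not overlap in 2092 genes (10.6%, with 4.97% higher and 5.61% lower), among them 531 of the 533.

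The count moved with the arrays used. Without the narrow arrays 623 genes (3.15%) passed, 236 higher (1.19%) and 387 lower (1.96%), and 401 of them were among the 533 with the same direction. With the replicate number as a block 1033 (5.22%) passed, 2.25% higher and 2.98% lower, which include all 533. Without combination replicate 2 the count was 322, without control replicate 3 it was 344, and without control replicate 1 it was 806. In each of the fits that left out 1 of the 17 arrays in turn, 235 of the 533 passed, 94 higher and 141 lower. With estimated array weights the count was 1400, where the narrow arrays weighed 0.19 and 0.11, control replicate 2 0.54, control replicate 3 2.92 and rapamycin replicate 1 11.3. In a fit to the 6 arrays alone no gene passed (limma, lowest adjusted p = 0.0524, 1442 genes at an unadjusted p under 0.05), whereas the same 6 arrays with the replicate block gave 1512.

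All 533 genes kept their direction without the narrow arrays. The size of the change was larger without them for 323 genes and smaller for 210, with a median increase of 0.05. For none of the 533 did it differ by more than 1.5 times. The plot of one estimate against the other shows the points close to the line of equality. DDIT4 and BHLHE40 are the open points at the low end, genes past the threshold only when the narrow arrays were kept.

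**Figure D1:**
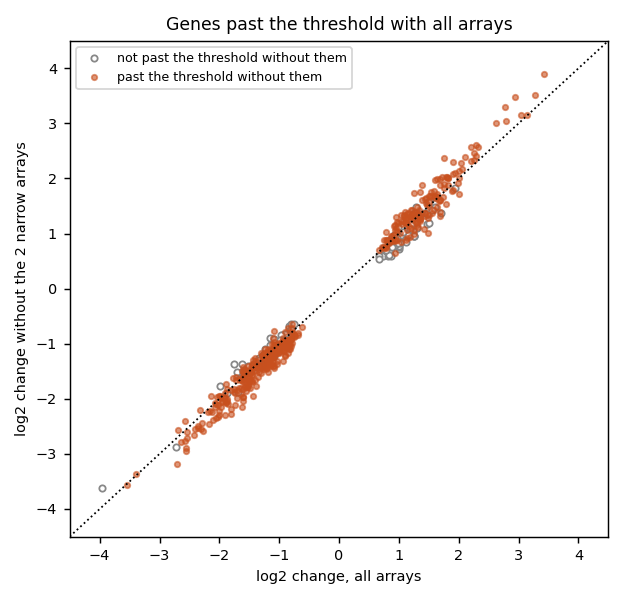
Log2 change of the 533 genes past the threshold, combination minus control, with all arrays (horizontal axis) and without the 2 narrow arrays (vertical axis). Filled points also pass without them, open points do not; the dotted line marks equality.

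The 10 largest rises ran from 2.29 to 3.42. IL13RA2, a receptor chain that binds interleukin 13, read 5.54, 5.69 and 6.72 on the combination arrays, against 3.08, 2.45 and 2.16 on the control arrays. Its lowest combination array lay above its highest control array by over 2 units. It rose by 3.42 ± 0.50 (SE of the limma fit), a 10.7-fold difference with an adjusted p of 0.00199, and by 3.90 without the narrow arrays. AHNAK, a very large scaffold protein under the cell membrane, read 10.30, 10.14 and 10.39 with the combination and 7.5, 7.27 and 6.94 in control cells. The groups were far apart beside their spread, and AHNAK rose by 3.04 ± 0.29 (adjusted p = 0.000172). HEY1, a repressor known as a Notch target, read 8.21, 8.25 and 10.16 with the combination and 5.42, 5.26 and 6.11 in control cells. Replicate 3 was the highest array of each group, and the groups did not overlap. HEY1 rose by 3.28 ± 0.59 (adjusted p = 0.00722).

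HLA-DRB4, an MHC class II beta chain, read 11.33, 10.88 and 11.67 with the combination and 8.23, 8.01 and 8.23 in control cells, an 8.79-fold rise. Of its 3 probe sets 2 changed in the same direction, and probe sets of the near-identical DRB genes can share signal. NCAM1, the adhesion molecule CD56 found on many myeloma cells, read 6.85, 7.88 and 7.45 with the combination and 4.97, 4.69 and 4.65 in control cells. It rose by 2.63 ± 0.34, although only 4 of its 7 probe sets had that direction. SATB1, a chromatin organiser of lymphoid cells, read 6.64, 7.22 and 7.68 with the combination and 4.59, 4.64 and 5.45 in control cells, a rise of 2.29 ± 0.30. The other 4 of the 10 largest rises were 2.94 for OTOGL, 2.79 for the pseudogene TPTE2P6, 2.78 for TMEM178A and 2.32 for SPINK2, a protease inhibitor. These 10 were chosen among genes whose groups did not overlap, so the lack of overlap is no result. All 10 passed without the narrow arrays.

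**Figure D2:**
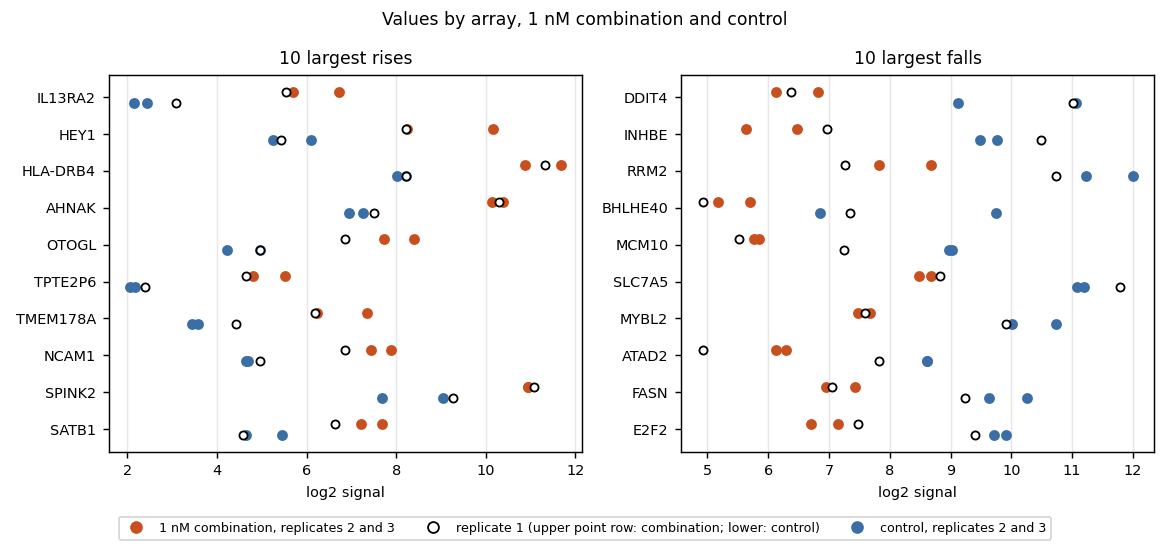
Log2 signal (horizontal axes) of the 10 largest rises and the 10 largest falls on each combination array (orange) and control array (blue), with replicate 1 of each group as an open point; combination points sit above control points in each gene's row. IL13RA2 lay between 5.54 and 6.72 with the combination and between 2.16 and 3.08 in control cells.

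The 10 largest falls ran from -3.96 to -2.56. DDIT4 encodes REDD1, a stress-induced brake on mTOR complex 1. It read 6.37, 6.82 and 6.13 with the combination and 11.01, 9.12 and 11.06 in control cells. Control replicate 2 was almost 2 units below the other controls and still above every combination array. DDIT4 fell by 3.96 ± 0.69, to a 15.5-fold lower signal (adjusted p = 0.00559). Without the narrow arrays its change was -3.61 and its adjusted p was 0.0517, so it no longer passed. INHBE, an inhibin beta chain known as a stress response gene, read 6.96, 5.64 and 6.48 with the combination and 10.48, 9.48 and 9.77 in control cells, and fell by 3.55 ± 0.51. RRM2, the small subunit of ribonucleotide reductase, which makes deoxyribonucleotides, read 7.26, 7.83 and 8.68 with the combination and 10.73, 11.23 and 12 in control cells. In both groups the replicates ran in the same order, and RRM2 fell by 3.40 ± 0.37, a 10.5-fold difference (adjusted p = 0.000358).

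SLC7A5, the transport subunit of the large neutral amino acid transporter LAT1, read 8.82, 8.48 and 8.68 with the combination and 11.78, 11.19 and 11.08 in control cells. The arrays of each group lay close together, and the fall of 2.69 ± 0.23 shared the lowest adjusted p of all genes (7.9e-05). BHLHE40, a transcriptional repressor, read 4.92, 5.18 and 5.70 with the combination and 7.35, 6.86 and 9.74 in control cells. Its fall of 2.72 ± 0.61 leaned on control replicate 3, passed in 2 of the 6 fits that left out 1 array of these groups, and had an adjusted p of 0.0737 without the narrow arrays. The other 5 of the 10 largest falls were 2.70 for MCM10, 2.64 for MYBL2, 2.57 for ATAD2, 2.57 for FASN and 2.56 for E2F2, and all 5 passed without the narrow arrays.

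DNA replication was the first of the gene groups. Of 35 genes of the G1/S transition and replication, 19 (54.3%) fell and none rose. Of all genes 1.58% fell and 1.12% rose, which is the background for the lists below too. Their median change was -1.36, against 0.02 for all genes, and members ran from -2.70 to -0.16. Without the narrow arrays 22 fell (median -1.52), and with the replicate block 24. In RNA pooled from a whole culture, fewer cells in a phase of the cycle and less RNA per cell cannot be told apart.

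CDC25A, the phosphatase that activates CDK2 at the start of S phase, read 7.16, 7.03 and 7.19 with the combination and 9.25, 9.44 and 9.76 in control cells. The combination arrays differed from each other by less than 0.2, and CDC25A fell by 2.36 ± 0.20, to a 5.13-fold lower signal (adjusted p = 7.9e-05). CDC45, a part of the replicative helicase, read 6.02, 6.16 and 5.97 with the combination and 8.12, 8.47 and 8.77 in control cells, a fall of 2.40 ± 0.25. MCM4, a subunit of the MCM ring of that helicase, read 8.39, 7.86 and 8.06 with the combination and 10.22, 10.25 and 10.76 in control cells, a fall of 2.31 ± 0.21. These genes kept more than 1.8 units between the groups. E2F2, an activator of the genes of this phase, read 7.48, 7.15 and 6.71 with the combination and 9.40, 9.71 and 9.91 in control cells. MCM10, which helps to start replication forks, read 5.52, 5.85 and 5.77 with the combination and 7.24, 9.03 and 8.97 in control cells. For MCM10 the narrow control array was the lowest control, and the fall of 2.70 became 3.19 without the narrow arrays.

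Promoters are shown for 6 genes whose RNA moved with the combination and whose proximal promoter holds a motif searched for here. No motif share was counted for the nucleotide supply list, to which RRM2 belongs. They are the 250 bases before the first listed start of the gene in RefSeq (build GRCh38.p14). They are written 5′ to 3′ on the strand of the gene, and only the motif named below for each gene is in capitals. E2F sites were searched as TTCCCGC or TTGGCGC, the cell cycle homology region (CHR) as TTTGAA and the CCAAT box as CCAAT, each on both strands. A match in capitals may thus be the reverse complement of these letters, and overlapping matches were counted once per promoter. Matches to other motifs stay in lower case. CDC25A, GINS2 and PLK1 also hold CCAAT matches, and PLK1 an E box (CACGTG). The promoters of CDC25A (chr3:48188418-48188667, minus strand), GINS2 (chr16:85688955-85689204, minus strand) and E2F2 (chr1:23531234-23531483, minus strand) carry E2F sites. That of RRM2 (chr2:10122489-10122738, plus strand) carries 3 CCAAT boxes, that of PLK1 (chr16:23678639-23678888, plus strand) a CHR, and that of HLA-DMA (chr6:32953098-32953347, minus strand) 2 CCAAT boxes read as ATTGG.
CDC25A: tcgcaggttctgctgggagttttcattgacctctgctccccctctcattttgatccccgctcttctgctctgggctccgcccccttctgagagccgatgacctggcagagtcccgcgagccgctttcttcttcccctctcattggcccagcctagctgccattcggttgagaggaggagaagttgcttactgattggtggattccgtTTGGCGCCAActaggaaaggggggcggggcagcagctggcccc
GINS2: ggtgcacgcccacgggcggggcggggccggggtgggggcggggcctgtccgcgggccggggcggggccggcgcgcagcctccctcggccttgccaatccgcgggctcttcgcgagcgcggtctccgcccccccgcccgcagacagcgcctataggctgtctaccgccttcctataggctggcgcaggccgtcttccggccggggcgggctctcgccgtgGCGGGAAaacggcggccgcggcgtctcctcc
E2F2: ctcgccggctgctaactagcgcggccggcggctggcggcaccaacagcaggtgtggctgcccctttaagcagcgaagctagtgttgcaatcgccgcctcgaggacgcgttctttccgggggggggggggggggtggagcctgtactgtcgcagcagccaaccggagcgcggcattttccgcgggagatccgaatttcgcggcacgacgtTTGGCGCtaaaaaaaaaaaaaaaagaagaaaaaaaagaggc
RRM2: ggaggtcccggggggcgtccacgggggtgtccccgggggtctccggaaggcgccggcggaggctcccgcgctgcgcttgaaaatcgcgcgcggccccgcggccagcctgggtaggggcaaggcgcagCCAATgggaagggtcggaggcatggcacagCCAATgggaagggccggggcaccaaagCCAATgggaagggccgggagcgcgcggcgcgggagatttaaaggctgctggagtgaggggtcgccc
PLK1: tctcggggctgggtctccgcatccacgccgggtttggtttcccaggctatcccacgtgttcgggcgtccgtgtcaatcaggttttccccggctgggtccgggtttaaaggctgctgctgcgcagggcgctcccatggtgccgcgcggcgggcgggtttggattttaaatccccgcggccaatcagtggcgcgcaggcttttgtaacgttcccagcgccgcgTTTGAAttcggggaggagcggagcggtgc
HLA-DMA: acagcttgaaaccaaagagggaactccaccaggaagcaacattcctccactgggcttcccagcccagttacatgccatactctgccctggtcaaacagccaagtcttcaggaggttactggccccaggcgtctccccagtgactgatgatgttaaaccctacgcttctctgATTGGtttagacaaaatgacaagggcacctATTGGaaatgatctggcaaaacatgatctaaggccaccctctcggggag

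The E2F site of CDC25A lies 43 to 34 bases before the start, where the letters match on both strands, that of GINS2 31 to 25 and that of E2F2 41 to 35 bases before it. In RRM2 the boxes begin 123, 93 and 66 bases before the start, and the CHR of PLK1 lies 29 to 24 bases before it. Over the lists, 17 of 30 G1/S promoters (56.7%) held an E2F site, against 10.5% of the 15384 measured genes with a promoter and 7.95% of all 27305 promoters. A CHR was in 16 of 30 mitosis promoters (53.3%), against 10.6% of measured genes and 13.6% of all promoters, and in none of the 30 G1/S promoters. MHC class II, which rose, held it in 5 of 13 promoters (38.5%), the ATF4 list in 10.7%, sterol in 5.88% and glycolysis in 4.17%, and it was in 12.9% of the lower and 10.9% of the higher genes' promoters. CCAAT boxes were in 76.7% of the mitosis, 76.9% of the MHC class II and 88.2% of the sterol promoters, against 34.1% of measured genes and 33.0% of all promoters, and in 56.7% of the G1/S, 46.4% of the ATF4 and 29.2% of the glycolysis promoters. Over all genes that passed, an E2F site was in 51 of 255 promoters of lower genes (20%) and in 15 of 174 of higher genes (8.62%). A CCAAT box was in 51.0% of the lower and 42.5% of the higher genes' promoters. CARE was in 14.3% of ATF4, 7.69% of MHC class II, 4.17% of glycolysis, 3.33% of mitosis and no G1/S or sterol promoters. Measured genes held it in 2.31%, lower genes in 1.57% and higher genes in 0.575%. An E box was in 20.8% of glycolysis, 16.7% of mitosis, 13.3% of G1/S, 11.8% of sterol and 10.7% of ATF4 promoters. No MHC class II promoter held it. Measured genes held it in 7.83%, lower genes in 12.5% and higher genes in 6.32%. Matches of letters describe these windows only.

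Mitosis genes fell as well. Of 36, 17 (47.2%) fell and none rose, with a median of -1.52 and a range from -2.64 to -0.42. The count was 20 without the narrow arrays (median -1.63) and 25 with the replicate block. MYBL2, the B-MYB factor of the complex that drives these genes, read 7.60, 7.48 and 7.68 with the combination and 9.92, 10.01 and 10.73 in control cells. Its groups were over 2 units apart, and it fell by 2.64 ± 0.22, to a 6.21-fold lower signal (adjusted p = 7.9e-05). MKI67, the proliferation antigen Ki-67, read 7.08, 6.63 and 6.74 with the combination and 8.72, 8.77 and 8.60 in control cells, a fall of 1.88 ± 0.20. NCAPH, a condensin subunit that packs chromosomes, read 6.98, 7.02 and 7.28 with the combination and 9.0, 8.96 and 9.78 in control cells, a fall of 2.15 ± 0.25. The spindle kinases followed the same pattern. AURKA read 7.64, 7.30 and 7.91 with the combination and 9.15, 9.46 and 9.90 in control cells, and fell by 1.89 ± 0.26. PLK1 read 7.42, 7.16 and 7.60 with the combination and 9.16, 9.06 and 9.82 in control cells, and fell by 1.96 ± 0.30. AURKB fell by 1.59 ± 0.24. None of these 6 genes overlapped between the groups. That held for 531 of the 533 genes that passed and 10.6% of all genes, so it is no separate result.

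Nucleotide supply and repair genes moved in the same direction in smaller shares. Of 23 nucleotide genes 5 (21.7%) fell and none rose (median -0.71), with 6 falls without the narrow arrays and 8 with the replicate block. Beside RRM2, the folate carrier SLC19A1 read 7.78, 7.52 and 7.53 with the combination and 8.99, 9.50 and 8.67 in control cells, a fall of 1.45 ± 0.20. Thymidine kinase TK1 read 7.89, 7.96 and 8.36 with the combination and 9.94, 9.03 and 10.32 in control cells, and its fall of 1.70 ± 0.37 had an adjusted p of 0.126 without the narrow arrays. The nucleotide supply count was 8 without control replicate 1, 2 without control replicate 3 or combination replicate 1 and 3 without combination replicate 2. Of 15 measured recombination and Fanconi repair genes, out of 20, 6 (40%) fell (median -1.12), 8 without the narrow arrays and 9 with the replicate block. BLM, a helicase that resolves recombination intermediates, fell by 1.60 ± 0.31, RAD54L by 1.61 ± 0.32, and FANCB, a subunit of the Fanconi core complex, by 1.00 ± 0.16. The recombination and Fanconi repair count was 2 without control replicate 3 and 3 without combination replicate 1. Of 17 measured histone genes, 2 fell (11.8%), H2AX by 1.47 ± 0.20 and H2BC4 by 0.62 ± 0.15, and the median was -0.43. Histone genes have near-identical copies whose probe sets can share signal.

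Amino acid genes formed the group with the largest single falls. Of 34 genes of the ATF4 and amino acid response, 11 (32.4%) fell and none rose, with a median of -1.13 and a range from -3.96 to 0.11. Leaving out the narrow arrays, 7 fell with the same median, and with the replicate block 14. SLC3A2, the heavy chain that brings SLC7A5 to the membrane, read 8.25, 7.56 and 7.28 with the combination and 10.31, 9.22 and 9.76 in control cells. The groups were about 1 unit apart at their nearest, and SLC3A2 fell by 2.07 ± 0.31, to a 4.19-fold lower signal (adjusted p = 0.00208). DDIT4, INHBE and SLC7A5 belong here too. SESN2, a leucine sensor induced by ATF4, read 8.14, 7.08 and 7.66 with the combination and 10.13, 7.84 and 9.55 in control cells. Control replicate 2 lay among the combination arrays, and the change of -1.54 did not pass (adjusted p = 0.159). None of 17 aminoacyl-tRNA synthetase genes, which load tRNAs with amino acids, passed, and their median was -0.64. One fell without the narrow arrays and 5 with the replicate block. Among them GARS1 read 11.96, 11.16 and 11.81 with the combination and 12.84, 12.21 and 13.19 in control cells (change -1.10, adjusted p = 0.0733, and 0.0189 with the replicate block). YARS1 differed by -1.02 (adjusted p = 0.0591, and 0.0201 with the replicate block).

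Protein synthesis genes showed few calls. Of 25 ribosome biogenesis genes 1 fell, UTP20 of the small subunit processome, by 1.00 ± 0.21 (adjusted p = 0.0178). The list's median was -0.39, and with the replicate block 4 fell. NOLC1, a nucleolar chaperone, read 10.53, 10.48 and 10.75 with the combination and 11.05, 11.15 and 11.37 in control cells (change -0.60, adjusted p = 0.0772, and 0.0159 with the replicate block). Of 25 measured cytosolic ribosomal protein genes, out of 36, none passed, and their median was 0.36, from 0.05 to 1.00. The count of rises was 1 with the replicate block, 5 without control replicate 2, 2 without control replicate 1 and 15 with array weights, where the median of the cytosolic ribosomal proteins was 0.64. RPL34 read 13.25, 13.21 and 13.29 with the combination and 12.69, 12.91 and 11.93 in control cells (change 0.74, adjusted p = 0.0702, and 0.045 with the replicate block). Ribosomal proteins have many processed copies in the genome, so their probe sets can share signal.

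Lipid synthesis genes fell in both branches. Of 20 measured sterol synthesis and uptake genes, out of 26, 6 (30.0%) fell and none rose (median -0.71), again 6 without the narrow arrays and 7 with the replicate block. SCARB1, a lipoprotein receptor, read 9.43, 8.57 and 8.11 with the combination and 11.41, 11.20 and 10.79 in control cells, a fall of 2.43 ± 0.35. EBP, a sterol isomerase, read 9.13, 9.30 and 9.43 with the combination and 10.76, 11.41 and 10.97 in control cells, a fall of 1.76 ± 0.20. The groups of both genes were more than 1.3 units apart. FDPS, which makes farnesyl diphosphate, fell by 1.46 ± 0.22. Of 14 fatty acid synthesis genes 3 (21.4%) fell and none rose (median -0.48), and 3 fell without the narrow arrays (median -0.64). The median for fatty acid synthesis was -1.32 without control replicate 1, -0.12 without control replicate 2, and -0.25, -0.89 and -0.80 without combination replicates 1, 2 and 3. FASN, the fatty acid synthase, read 7.05, 7.42 and 6.95 with the combination and 9.24, 10.25 and 9.64 in control cells, a 5.93-fold lower signal. SCD, which makes monounsaturated fatty acids, read 9.65, 9.42 and 9.30 with the combination and 11.11, 12.16 and 11.25 in control cells, a fall of 2.06 ± 0.25. ACACA, the acetyl-CoA carboxylase that feeds FASN, fell by 0.86 ± 0.18 (adjusted p = 0.0165).

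Glycolysis genes fell, oxidative phosphorylation genes mostly did not pass. Of 26 glycolysis and hypoxia genes 9 (34.6%) fell and none rose, with a median of -1.06 and a range from -2.05 to 0.17. On the arrays without the narrow ones 7 fell, with the replicate block 12, and with the arrays scaled to one median and interquartile range 5. SLC2A1, the glucose transporter GLUT1, read 6.07, 6.19 and 5.72 with the combination and 8.0, 8.07 and 7.81 in control cells, a fall of 1.97 ± 0.27 to a 3.91-fold lower signal. HK2, the hexokinase that traps glucose, read 7.24, 7.20 and 7.69 with the combination and 8.48, 8.72 and 8.99 in control cells, a fall of 1.36 ± 0.20. PGAM1, a phosphoglycerate mutase, read 11.65, 11.82 and 11.94 with the combination and 13.06, 12.84 and 13.39 in control cells, a fall of 1.29 ± 0.18. None of these 3 overlapped between the groups, as with nearly all genes that passed, and all 3 passed without the narrow arrays. Of 30 oxidative phosphorylation genes 2 (6.67%) fell, the complex I subunits NDUFB8 by 1.16 ± 0.24 and NDUFA9 by 1.09 ± 0.23, and the median was -0.22. NDUFB8 had an adjusted p of 0.106 without the narrow arrays.

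MHC class II genes, whose products present peptides to CD4+ T cells and which B-lineage cells share with other antigen-presenting cells, rose together. Of 16 genes 9 (56.2%) rose, against 1.12% of all genes, and none fell (median 1.12, from -0.17 to 3.14). The count was 8 without the narrow arrays (median 1.13) and 10 with the replicate block. HLA-DMA, a chain of the exchange factor that loads peptides, read 12.48, 12.41 and 12.61 with the combination and 10.98, 11.09 and 10.94 in control cells. The spread within each group was under 0.3, and HLA-DMA rose by 1.5 ± 0.18, to a 2.83-fold higher signal (adjusted p = 0.000625). HLA-DPB1, a class II beta chain, read 11.30, 11.72 and 11.64 with the combination and 10.13, 10.11 and 9.89 in control cells, a rise of 1.51 ± 0.19. Of 26 MHC class I and interferon response genes 2 (7.69%) rose and none fell (median 0.26). IFI6, an interferon-induced mitochondrial protein, read 9.41, 8.57 and 9.22 with the combination and 7.86, 6.91 and 6.10 in control cells, a rise of 2.11 ± 0.39. NLRC5, the activator of MHC class I genes, rose by 1.23 ± 0.24, with an adjusted p of 0.0674 without the narrow arrays.

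**Figure D3:**
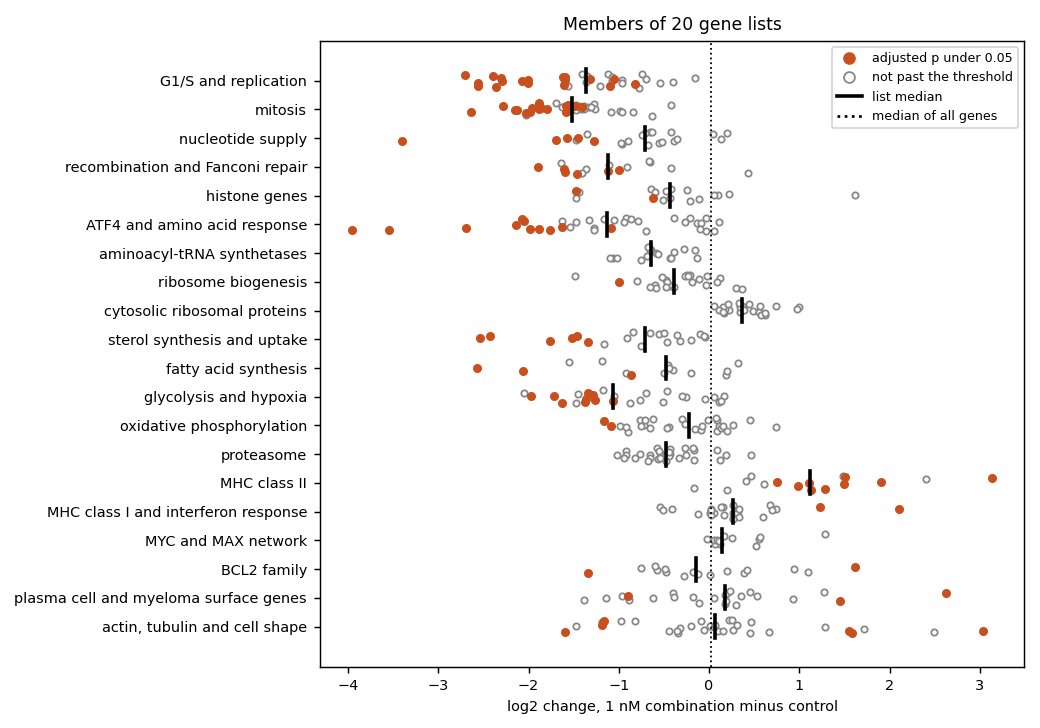
Log2 change, combination minus control (horizontal axis), of the members of 20 gene lists (rows). Filled points passed an adjusted p of 0.05 in limma, open points did not, thick bars are list medians and the dotted line is the median of all genes, 0.02; the G1/S, mitosis and ATF4 medians were -1.36, -1.52 and -1.13, and that of MHC class II was 1.12.

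The same groups were followed array by array, as the median over a list of each array's deviation from the gene's mean over the 6 arrays. For G1/S and replication these medians were -1.05, -0.46 and -0.77 with the combination and 0.18, 1.00 and 1.25 in control cells. For mitosis they were -1.18, -0.79 and -0.46 with the combination and 0.55, 1.05 and 1.22 in control cells. The narrow arrays were the lowest of their groups for these lists. For the ATF4 list they were -0.64, -0.48 and -0.48 with the combination and 0.86, 0.04 and 0.80 in control cells, with control replicate 2 nearest to the combination. MHC class II gave 0.31, 0.63 and 0.73 with the combination and -0.90, -0.47 and -0.45 in control cells. The groups did not overlap in these 4 lists, nor in the repair, sterol, fatty acid and glycolysis lists. They also did not in the MYC and MAX network and the cytosolic ribosomal proteins, where no gene passed. The MYC list gave 0.06, 0.20 and 0.20 with the combination and -0.32, -0.22 and 0.03 in control cells. Lack of overlap thus does not mark lists with calls. For nucleotide supply the groups overlapped, with -0.56, -0.55 and 0.03 for the combination and -0.05, 0.40 and 0.90 for control cells.

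**Figure D4:**
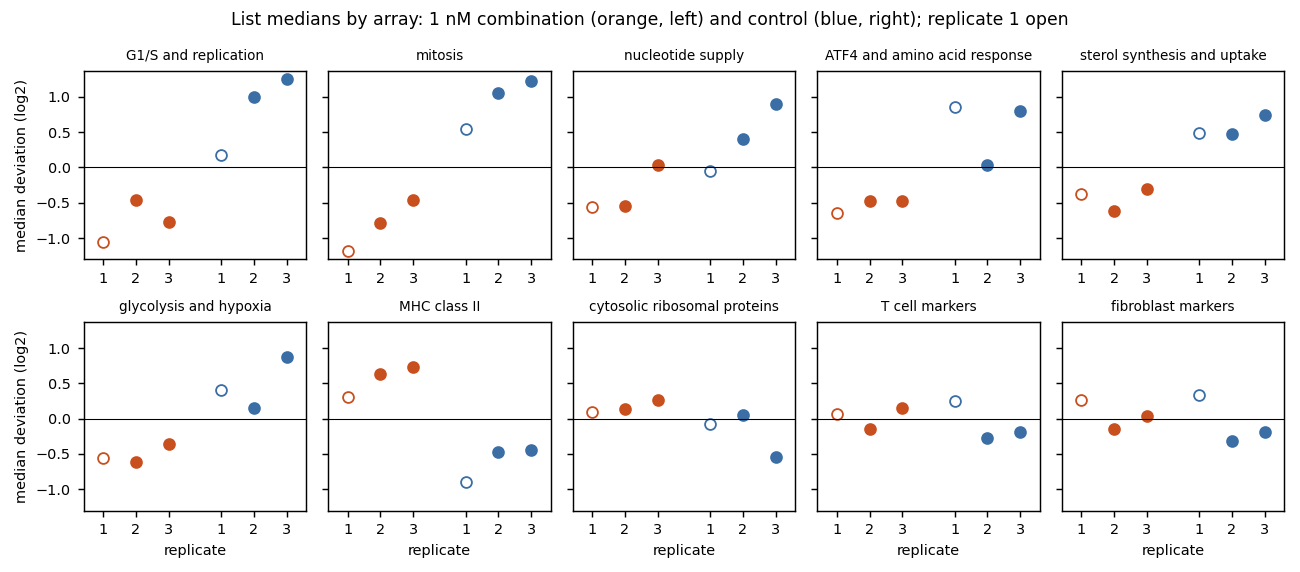
Median deviation (log2, vertical axes) of the members of 10 gene lists on each combination array (orange, left) and control array (blue, right), with replicate numbers on the horizontal axes and replicate 1, the narrow arrays, as open points. The deviation of a gene is taken from its mean over these 6 arrays.

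Few plasma cell, MYC and cell death genes passed. MYC read 12.33, 12.54 and 12.79 with the combination and 11.95, 11.66 and 12.41 in control cells, values that overlapped. Its change of 0.55 ± 0.27 did not pass (adjusted p = 0.418), nor did that of its partner MAX (0.52, adjusted p = 0.66) or any of the 12 genes of the MYC and MAX network. The changes in that network ran from -0.02 to 1.29 with a median of 0.14, against 0.02 for all genes. MXI1, a MAX partner that opposes MYC, read 9.88, 10.67 and 11.13 with the combination and 8.66, 8.89 and 10.27 in control cells (change 1.29, adjusted p = 0.134, and 0.0175 with the replicate block). BCL2L11, which encodes the death activator BIM, read 9.88, 10.76 and 10.70 with the combination and 8.40, 9.03 and 9.07 in control cells. Both groups had their lowest value in replicate 1, and BCL2L11 rose by 1.62 ± 0.29, to a 3.06-fold higher signal (adjusted p = 0.00703). BID, another activator of the BCL2 family, read 7.66, 7.34 and 8.02 with the combination and 8.67, 9.47 and 8.92 in control cells. It fell by 1.34 ± 0.29, a call kept in 2 of the 6 fits without 1 array of these groups. The death inhibitor BCL2 differed by 0.94 (adjusted p = 0.0822, and 0.0217 with the replicate block).

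Of 24 plasma cell and myeloma surface genes 2 rose, 1 fell and the median was 0.18. GPRC5D, a receptor targeted in myeloma therapy, read 9.29, 9.49 and 9.15 with the combination and 8.26, 7.51 and 7.83 in control cells, a rise of 1.45 ± 0.23, and NCAM1 is the other. CD38, the surface enzyme targeted by daratumumab, read 8.08, 7.97 and 7.72 with the combination and 8.98, 9.05 and 8.45 in control cells. It fell by 0.90 ± 0.20 with an adjusted p of 0.0275, and 0.0689 without the narrow arrays. PRDM1, the factor that sets the plasma cell program, read 8.67, 9.87 and 10.38 with the combination and 7.59, 8.37 and 9.15 in control cells (change 1.27, adjusted p = 0.188, and 0.0469 with the replicate block). Of 12 B cell genes BACH2, a repressor that opposes the plasma cell program, rose by 1.76 ± 0.40 and CD79B, a B cell receptor subunit, fell by 1.19 ± 0.27, though only 1 of its 3 probe sets fell. PIM2, a survival kinase of myeloma cells, rose by 1.01 ± 0.21 (adjusted p = 0.0179, and 0.0678 without the narrow arrays). Of 25 unfolded protein response and secretion genes only SEC61A1, the channel of the endoplasmic reticulum, passed, with a fall of 0.93 ± 0.22. None of 29 proteasome genes passed (median -0.48).

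Few genes of the drugs' own pathways passed. Of 30 genes of mTOR, its brakes and its feedback DDIT4 alone passed, and the median was -0.03. MTOR itself differed by -0.37 (adjusted p = 0.418) and RPTOR, the defining subunit of complex 1, by -0.38 (adjusted p = 0.31). DEPTOR, an mTOR inhibitor abundant in myeloma, differed by -1.03 (adjusted p = 0.16, 0.0139 without the narrow arrays and 0.027 with the replicate block). Of 16 measured histone deacetylase and corepressor genes HDAC6, a cytoplasmic deacetylase, alone passed. It read 9.15, 8.86 and 8.57 with the combination and 7.93, 7.42 and 7.74 in control cells, a rise of 1.17 ± 0.23. HDAC1, a target of MS275, differed by -0.38 with all arrays (adjusted p = 0.668) and by -0.61 without the narrow arrays (adjusted p = 0.0305). CDKN1A, the cell cycle inhibitor p21, read 9.38, 8.31 and 8.72 with the combination and 9.79, 8.09 and 9.26 in control cells. The values interleave, and the change of -0.24 ± 0.43 did not pass (adjusted p = 0.932). None of 14 genes of the CDK inhibitors, D cyclins and CDK4/6 passed, and of 16 p53 targets ZMAT3, an RNA-binding protein, alone rose, by 1.33 ± 0.27.

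Cytoskeleton genes were split. Of 32 actin, tubulin and cell shape genes 3 rose and 3 fell (18.8%), with 6 falls without the narrow arrays or without control replicate 1, and with 6 rises and 6 falls with the replicate block. TUBA1A, the tubulin chain of neurons, read 9.15, 9.23 and 9.81 with the combination and 7.86, 7.82 and 7.86 in control cells, a rise of 1.55 ± 0.25. TUBA1B, the alpha tubulin of most dividing cells, read 12.50, 12.37 and 12.47 with the combination and 13.48, 13.56 and 13.87 in control cells, a fall of 1.19 ± 0.15. These close relatives thus differed in sign. GSN, the actin-severing protein gelsolin, rose by 1.58 ± 0.26, although 2 of its 7 probe sets had that direction. In the Notch list of 23 genes HEY1 rose and MFNG, a sugar transferase that modifies Notch, fell by 1.28 ± 0.21. Of 31 lysosome and autophagy genes the sialidase NEU1 fell by 1.43 ± 0.18, the galactosidase GLA by 1.41 ± 0.31, while the sterol carrier NPC2 rose by 0.95 ± 0.21. NPC1, which exports cholesterol from lysosomes and lies outside the rule for named genes, fell by 0.82. GLA had an adjusted p of 0.0816 without the narrow arrays.

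Markers of other cell types rarely passed. No T cell, epithelial, fibroblast, red cell, neuronal or germ cell gene passed. Of the myeloid markers CSF1R rose by 0.91 ± 0.20, with 5.70, 5.27 and 5.87 on the combination arrays and 4.67, 4.76 and 4.69 on the control arrays, values that lie below the median gene's mean of 6.09. Its adjusted p was 0.0238, and 0.0937 without the narrow arrays. MAP2, a neuronal microtubule protein, read 4.75, 5.01 and 6.88 with the combination and 3.79, 2.60 and 2.79 in control cells (change 2.49, adjusted p = 0.08, and 0.0326 with the replicate block). DAZL, a germ cell RNA-binding protein, read 2.67, 5.21 and 5.21 with the combination and 2.67, 2.28 and 2.05 in control cells. Combination replicate 1 lay with the controls, and the change of 2.03 did not pass (adjusted p = 0.271).

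Calls near the threshold were often lost when 1 array was left out, which also makes a group smaller. When each of the 6 arrays of these groups was left out in turn, SEC61A1, NPC1, NPC2 and H2BC4 passed in 1 of 6 fits. BACH2, CD79B, CD38, CSF1R, NDUFA9, TK1, BID and BHLHE40 passed in 2, and ACACA in 3. PIM2, UTP20, ZMAT3, GLA, NDUFB8 and HDAC6 passed in 4, BLM failed without control replicate 3 and RAD54L without combination replicate 3. The other genes described here as risen or fallen passed in all 6 fits.

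The combination was next set against MS275 alone, which asks what 1 nM rapamycin added. Of 19775 genes 21 (0.106%) differed, 1 higher (0.00506%) and 20 lower (0.101%) in the combination, with 878 (4.44%) at an unadjusted p under 0.05. C3AR1, the receptor of complement C3a, read 5.89, 5.35 and 5.86 with the combination, 8.06, 7.84 and 8.05 with MS275 and 5.31, 5.55 and 5.05 in control cells. The combination thus lay near the control level, 2.29 ± 0.18 below MS275 (adjusted p = 7.66e-05). EMP2, a tetraspan membrane protein, read 5.69, 5.87 and 5.73 with the combination and 8.09, 7.57 and 8.12 with MS275, a difference of -2.16 ± 0.27. DISP2, a membrane protein of the dispatched family, read 6.38, 5.94 and 6.34 with the combination and 7.89, 8.05 and 7.68 with MS275, a difference of -1.65 ± 0.17. Against control, these 3 genes differed by 0.40, 0.59 and 0.37 in the combination (adjusted p = 0.381, 0.378 and 0.363). Of the other 3 genes named for this comparison, P4HA1, a collagen prolyl hydroxylase, differed by -2.31, PTGS2, the cyclooxygenase COX-2, by -2.13 and COQ8A, of coenzyme Q synthesis, by 0.72. None of these 3 passed without the narrow arrays.

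CDC25A, GINS2 and MYBL2 were the genes past an adjusted p of 0.05 in the combination against control, against MS275 and against 1 nM rapamycin alike, and were singled out after these values were seen. CDC25A read 7.16, 7.03 and 7.19 with the combination, 8.45, 8.29 and 8.26 with MS275 and 8.45, 8.67 and 8.68 with rapamycin. GINS2, a subunit of the helicase complex, read 6.84, 7.20 and 7.30 with the combination, 8.42, 8.44 and 8.58 with MS275 and 8.31, 8.60 and 8.92 with rapamycin. MYBL2 read 7.60, 7.48 and 7.68 with the combination, 9.18, 8.69 and 8.91 with MS275 and 8.33, 8.73 and 8.65 with rapamycin. In all 3 the combination arrays overlapped with no array of the single drugs. These genes were chosen for passing against both drugs, so this lack of overlap is no further result. Against MS275 the differences were -1.21 ± 0.20 for CDC25A, -1.37 ± 0.21 for GINS2 and -1.34 ± 0.22 for MYBL2 (adjusted p = 0.0421, 0.0262 and 0.0421). These calls were close to the threshold: of 28 alternative fits CDC25A passed against MS275 in 8, GINS2 in 16 and MYBL2 in 9. All 3 failed without the narrow arrays and without any 1 combination or MS275 array. Against rapamycin CDC25A passed in all 28 fits, GINS2 in 26 and MYBL2 in 6. Without the narrow arrays 12 genes differed from MS275, and 44 with the replicate block. Leaving out 1 combination or MS275 array gave 3 to 8, leaving out 1 array of either rapamycin dose or of the 10 nM combination 11 to 14, and the 6 arrays fitted alone none (lowest adjusted p = 0.117, 632 at an unadjusted p under 0.05) or, with the replicate block, 5.

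Against 1 nM rapamycin alone, which asks what MS275 added, 243 genes (1.23%) differed, 185 higher (0.936%) and 58 lower (0.293%) in the combination. With the arrays scaled to one median and interquartile range the split was 118 higher and 73 lower. AHNAK read 10.30, 10.14 and 10.39 with the combination and 6.44, 7.40 and 6.51 with rapamycin, a difference of 3.49 ± 0.29 (adjusted p = 9.6e-05). IL13RA2 differed by 3.76, CA2, a carbonic anhydrase, by 3.73, HEY1 by 2.98 and NCAM1 by 2.93. All 5 were also over 3 units higher with MS275 alone than in control cells. ZBP1, a sensor of Z-form nucleic acid, read 5.54, 5.85 and 5.83 with the combination, 8.04, 7.65 and 7.96 with rapamycin and 7.0, 7.05 and 6.96 in control cells. The rapamycin arrays lay above control and the combination below it, and the combination differed from rapamycin by -2.14 ± 0.21. CBFA2T3, a corepressor, read 5.75, 5.77 and 5.48 with the combination, 7.61, 7.79 and 7.77 with rapamycin and 6.72, 7.14 and 7.5 in control cells, a difference of -2.06 ± 0.22 from rapamycin. RRM2 differed by -2.14, the histone gene H2BC12 by -2.01 and PLAGL1, a zinc finger factor, by -2.37. The calls for HEY1 and CA2 were lost without any 1 of the rapamycin arrays and without combination replicate 3, and that for CA2 without combination replicate 2 too. Those for RRM2 and H2BC12 were lost without rapamycin replicate 3 or combination replicate 1. PLAGL1 failed in 12 alternative fits, among them quantile normalization and scaling, and these 5 genes failed in the fit to the 6 arrays alone. AHNAK, IL13RA2, NCAM1, ZBP1 and CBFA2T3 passed in every alternative fit. Without the narrow arrays 265 genes differed, and 559 with the replicate block. The count was 80 to 112 without 1 of the rapamycin arrays, 121 and 140 without combination replicates 1 and 3, and 413 without control replicate 1.

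The genes called against control divided by direction. The 221 higher genes had a median change of 1.25 with the combination, 1.04 with MS275 alone and 0.20 with 1 nM rapamycin alone, each against the same control arrays. Of them 121 passed with MS275 alone, 2 with rapamycin alone and 99 with neither. Of all genes, 205 (1.04%) were higher and 90 (0.455%) lower with MS275 alone, and 4 (0.0202%) higher and 16 (0.0809%) lower with rapamycin alone. Of the 221 higher genes none differed from MS275 and 108 differed from rapamycin. The 312 lower genes had a median of -1.29 with the combination, -0.74 with MS275 and -0.70 with rapamycin. Of these 62 passed with MS275 alone, 14 with rapamycin alone and 242 with neither, while 10 differed from MS275 and 46 from rapamycin. These genes were chosen for their change in the combination, so their medians with each drug alone are no test of a difference.

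Single genes differed in how the combination stood beside each drug alone. SLC7A5 read 8.82, 8.48 and 8.68 with the combination, 10.19, 9.36 and 9.41 with MS275 and 9.43, 9.49 and 9.39 with rapamycin, with falls from control of 1.70 with MS275 and 1.91 with rapamycin. INHBE read 6.96, 5.64 and 6.48 with the combination, 9.60, 7.63 and 8.68 with MS275 and 6.52, 6.60 and 6.41 with rapamycin. INHBE thus lay as low with rapamycin alone as with the combination (difference -0.15, adjusted p = 0.9). NCAM1 read 6.85, 7.88 and 7.45 with the combination, 7.48, 8.82 and 7.85 with MS275 and 4.41, 4.55 and 4.43 with rapamycin, so its high arrays were those with MS275. HLA-DMA read 12.48, 12.41 and 12.61 with the combination, 11.95, 12 and 12.05 with MS275 and 11.57, 11.54 and 11.96 with rapamycin, with the combination above every array of either drug. It differed by 0.81 from rapamycin (adjusted p = 0.0446) and by 0.50 from MS275 (adjusted p = 0.869).

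**Figure D5:**
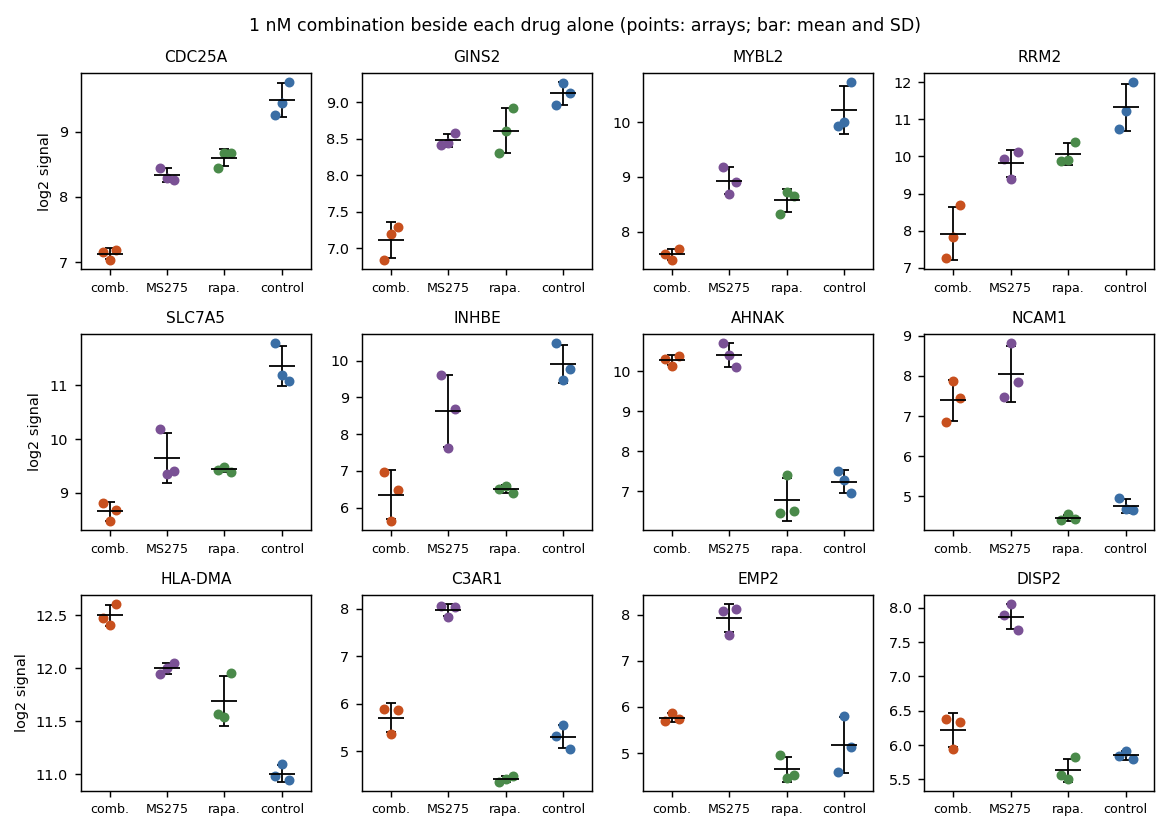
Log2 signal (vertical axes, a range of its own for each gene) of 12 genes on every array of the combination (comb.), MS275 alone, 1 nM rapamycin alone (rapa.) and control; points are arrays and bars the mean and SD (n = 3). CDC25A, GINS2 and MYBL2 were lowest with the combination, AHNAK and NCAM1 were high in both groups with MS275, and C3AR1, EMP2 and DISP2 were high with MS275 alone.

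The interaction asks whether the combination departed from the sum of the single-drug changes on the log2 scale. No gene passed (limma, 0% of 19775, lowest adjusted p = 0.49), with 916 (4.63%) at an unadjusted p under 0.05, and the median over all genes was 0.16 with the narrow arrays and 0.02 without them. Among the 221 higher genes 21 (9.5%) and among the 312 lower genes 29 (9.29%) had an unadjusted p under 0.05, with medians of -0.02 and 0.12. Both sets were chosen by their p against control in the same fit, with shared arrays and the same estimate of spread. Their shares are thus no test of an interaction. DDIT4 departed by -1.58 ± 0.97 and CDC25A by -0.32 ± 0.29, while SLC7A5 departed by 0.92 ± 0.32 and AHNAK by 0.32 ± 0.41. For the median gene the 95% interval of the interaction, not adjusted for the number of genes, reached 0.76 to either side. Departures smaller than that were mostly not detectable with this number of arrays. Larger ones, such as those of DDIT4 and SLC7A5, did not pass either, so larger departures may have gone uncalled too. With control replicate 2 left out 1 gene passed, PET100, outside the genes named by rule.

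The dose of rapamycin beside MS275 made no difference that passed. Between the 1 nM and the 10 nM combination no gene passed (limma, 0% of 19775, lowest adjusted p = 0.995), with 152 (0.769%) at an unadjusted p under 0.05, and the median interval extended 0.60 to either side. Against control, CDC25A changed by -2.36 with 1 nM and by -2.89 with 10 nM rapamycin beside MS275, RRM2 by -3.40 and -4.09, SLC7A5 by -2.69 and -2.76, and AHNAK by 3.04 and 3.11. DDIT4 averaged 6.44 ± 0.35 (SD, n = 3) in the 1 nM combination and 6.39 ± 0.15 (n = 2) in the 10 nM combination. MYC averaged 12.56 ± 0.23 at the lower and 12.45 ± 0.55 at the higher dose. Both combinations were set against the same control arrays, so their changes from control are not independent.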

How the data were processed

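Total RNA was amplified to biotin-labelled antisense RNA, per the labels' protocols. The deposited values are log2 signals per probe set, made with affy and RMA per the submitters' processing notes, with versions not given in the sources used here. Of 54613 probe sets 41091 have 1 gene symbol in the platform annotation, 1801 several and 11721 none. Symbols were updated by Entrez ID from RefSeq (GRCh38.p14) for 41037 of them. Each of 19775 genes is represented by the brightest, over the 17 arrays, of the probe sets that name it alone. No detection calls were used here, and precision is limited by how many arrays there are. For the median gene the 95% interval of a change reached 0.54 to either side.

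Group means were fitted to all 17 arrays with limma 3.58.1 in R 4.3.3 (lmFit, eBayes with defaults) and adjusted by Benjamini-Hochberg over all genes. The pipeline was tested on simulated data. Named are the 10 largest rises and falls without overlap, 3 members of each list with the lowest adjusted p, genes of interest, and up to 5 genes a direction in the other comparisons. Of 762 entries on 35 lists 694 were measured. The members, lists and comparisons were chosen with earlier results of these data known. Alternatives were 28 other fits, 1 of them chosen after seeing the data. Replicate numbers pair the arrays by their deviations from group means (combination with control r = 0.82, 0.71 and 0.57 for replicates 1 to 3; with MS275 0.49, 0.63 and 0.75; with 1 nM rapamycin 0.35, 0.52 and 0.73), across genes. The pairing comes from the data, not the labels, and for the control it cannot be told apart from the shared narrow range of replicates 1. It was not checked in this way for the 10 nM groups. Array 1 of the 10 nM combination correlated best with replicate 2 of the 1 nM combination (r = 0.994 across probe sets). Array 2 correlated best with replicate 3 (r = 0.993). The replicate block used the numbers in the labels, so in fits to all 17 arrays it may place these arrays in the wrong blocks.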

Additional observations from a re-analysis of the deposited data

How the results depend on the processing

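The 533 genes called against control became 1033 with the replicate block (paired fit), 1400 with array weights, 0 in a fit to these groups only, 1512 in that fit with the replicate block, and 1143 with the narrow arrays left out and the replicate block, the last chosen after seeing the data. Quantile normalization, scaling to one median and interquartile range, leaving out the 40% dimmest genes, averaging probe sets, eBayes with trend and robust, and leaving out the narrow arrays gave 414 to 623. Leaving out 1 array gave 322 to 806. The 21 genes against MS275 became 12 without the narrow arrays, 44 with the replicate block, 0 in its own groups only, 5 in that fit with the replicate block, 13 with scaling, 13 without the dimmest genes, 12 with averaged probe sets, 5 with trend and robust, and 3 to 31 without 1 array. The 243 against 1 nM rapamycin became 922 with array weights, 559 with the replicate block, 39 in its own groups only, 449 in that fit with the replicate block, 447 with the narrow arrays left out and the replicate block, and 80 to 413 without 1 array. The interaction gave 0 in every fit other than those that left out 1 array, which gave 0 to 1, and the dose comparison gave 0 throughout. Scaling to one median and interquartile range moved the median of all genes against control from 0.021 to -0.095, and there the replication, mitosis, nucleotide, repair, ATF4, sterol, fatty acid, glycolysis and MHC class II lists kept the sign of their medians. Of 71 named genes past the threshold, no alternative turned a direction, 1785 values stayed past the threshold and 198 did not. CDKN1A, which did not pass, ranged from -0.72 to 0.13 when 1 array was left out, with the opposite sign without control replicate 1. C3AR1, EMP2 and DISP2 against MS275 failed only in fits to these groups alone. The causes of these shifts were not tested, apart from smaller fits having fewer arrays. Signal over background is not known, so changes of dim genes such as IL13RA2 or DAZL carry an unknown background.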
